A study of Mus musculus with 6 samples.

Results

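The Ifit and Mx genes are interferon-induced antiviral effectors, and 5 of them were read here in the duodenum of mice labelled Apc+/- and Apc+/-Atg7-/-. Members were the genes Ifit1, Ifit2, Ifit3, Mx1 and Mx2, chosen by symbol. Each had exactly 1 probe set that named it alone, so 5 of the 19938 genes with a value were members. The control mice were Apc+/-, and the other mice were Apc+/-Atg7-/-, so both genotypes carry the same Apc mutation, and both are on a C57Bl6 background. Each genotype was represented by 3 arrays of dissected duodenum that the labels call normal. The labels give no age, treatment or pooling, nor the driver or cell type of the Atg7 deletion, and they do not name the animals. P-values therefore measure the spread between these samples. Apc is a brake on Wnt signalling, and Atg7 activates the conjugation systems that build autophagosomes.

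Type I and type III interferons bind their receptors, activate Jak1 and Tyk2, and send a complex that contains Stat2 and Irf9 to interferon-stimulated response elements in promoters. Ifit proteins are built of tetratricopeptide repeats and bind viral RNA or restrain translation. Mx proteins are dynamin-like GTPases that block viruses. In the intestine, epithelial cells respond mainly to type III interferon and immune cells mainly to type I. Laboratory strains such as C57BL/6 carry defective Mx1 and Mx2 alleles, and RefSeq lists both genes as transcribed pseudogenes in the C57BL/6J assembly (GRCm38.p6).

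The Ifit genes lie side by side on chromosome 19, and the Mx genes lie near each other on chromosome 16 (RefSeq, GRCm38.p6). In chromosomal order, Ifit2 spans chr19:34550550-34576534, Ifit3 chr19:34583119-34588982 and Ifit1 chr19:34640889-34650009. The paralogues Ifit3b (chr19:34607530-34613403) and Ifit1bl2 (chr19:34617046-34640827) lie between Ifit3 and Ifit1. Mx1 (chr16:97447035-97462906) and Mx2 (chr16:97536081-97560901) are separated by 73174 bases that hold Fam3b.

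Promoter windows are shown because these genes are textbook interferon targets, and because neighbouring Ifit genes share promoter sequence. Each window runs from 250 bases before to 50 after a RefSeq start site (GRCm38.p6, 300 bases, 5′ to 3′ on the plus strand, which is the strand of these genes). Capitals mark every match, on either strand, to a form of the interferon-stimulated response element, GAAA repeated in the same direction with any 2 bases between. In these windows the matches are on the other strand, so they read TTTC, 2 bases, TTTC. The windows are chr19:34640639-34640938 for Ifit1, chr19:34583279-34583578 for Ifit3, chr19:34607707-34608006 for Ifit3b and chr19:34550444-34550743 for the first of the 2 Ifit2 start sites.
Ifit1: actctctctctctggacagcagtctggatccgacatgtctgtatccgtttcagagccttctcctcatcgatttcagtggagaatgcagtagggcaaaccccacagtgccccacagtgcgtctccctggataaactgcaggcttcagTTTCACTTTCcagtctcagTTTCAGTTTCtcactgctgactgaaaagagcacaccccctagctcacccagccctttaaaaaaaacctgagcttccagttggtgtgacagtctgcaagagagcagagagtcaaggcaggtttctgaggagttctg
Ifit3: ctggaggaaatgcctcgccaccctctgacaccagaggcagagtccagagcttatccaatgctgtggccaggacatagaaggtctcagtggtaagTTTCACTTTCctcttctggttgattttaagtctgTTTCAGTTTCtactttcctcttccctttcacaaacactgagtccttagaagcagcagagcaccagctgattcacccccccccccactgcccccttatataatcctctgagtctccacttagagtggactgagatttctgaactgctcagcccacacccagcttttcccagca
Ifit3b: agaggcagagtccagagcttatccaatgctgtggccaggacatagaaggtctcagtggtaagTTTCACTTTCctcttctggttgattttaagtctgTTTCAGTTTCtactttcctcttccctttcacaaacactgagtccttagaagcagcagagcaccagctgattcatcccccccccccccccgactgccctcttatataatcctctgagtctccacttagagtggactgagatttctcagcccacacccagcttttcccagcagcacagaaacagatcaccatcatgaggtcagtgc
Ifit2: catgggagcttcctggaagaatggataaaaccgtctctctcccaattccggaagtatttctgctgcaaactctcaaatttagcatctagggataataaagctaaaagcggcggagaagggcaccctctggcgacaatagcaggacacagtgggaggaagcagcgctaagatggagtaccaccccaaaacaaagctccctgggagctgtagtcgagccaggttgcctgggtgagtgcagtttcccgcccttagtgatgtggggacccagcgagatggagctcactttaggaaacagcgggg
Ifit1, Ifit3 and Ifit3b each held 2 matches, and neither of the 2 Ifit2 windows held one. The motif occurred in 1131 of 32851 RefSeq promoter windows of this length (3.44%). The second match in each of the 3 windows has CT between the repeats on the motif's own strand, a special case of the first motif that occurred in 76 windows (0.231%). The interferon gamma activated site TTCNNNGAA, which reads alike on both strands, occurred in 1 of the Ifit2 windows, in no window of Ifit1 or Ifit3, and in 2726 windows overall (8.30%). The Ifit3 and Ifit3b windows matched at 258 of 260 aligned bases (99.2%). Ifit1bl2 is transcribed away from Ifit1 on the opposite strand, with 61 bases between the genes, and the first of its 2 windows (chr19:34640694-34640993) overlaps that of Ifit1 by 245 bases. Both matches of Ifit1 lie in that shared stretch. A match is a description of the letters and not of a factor's binding.

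Ifit1 and Mx2 rose in Apc+/-Atg7-/- duodenum, about 2-fold each, and Ifit2, Ifit3 and Mx1 did not pass the test. Ifit1 rose by 1.16 (log2, SE 0.11) and Mx2 by 0.94 (SE 0.10). Ifit2 (0.79, SE 0.17) and Ifit3 (0.68, SE 0.18) were higher on all 3 Apc+/-Atg7-/- arrays than on any Apc+/- array, without passing an adjusted p of 0.05. Mx1 differed by 0.12 (SE 0.09), with overlapping arrays. Thus 2 of the 5 passed, where 0.110% of all 19938 genes passed (22 genes), 0.0702% rose (14 genes) and 0.0401% fell (8 genes). Without Apc+/-Atg7-/- array 1 neither passed (Ifit1 1.11, adjusted p = 0.0517, and Mx2 0.87, adjusted p = 0.0561, by limma), and 2 genes of all 19938 did; leaving out any other single array kept both calls. Values are array signals on a log2 scale after the authors' normalization, tested with limma and adjusted over all 19938 genes. In bulk tissue, a change in the number of cells of a type and a change in RNA per cell cannot be told apart.

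Ifit1, which binds viral RNA that lacks the host's cap methylation, had signals of 8.82, 8.64 and 8.55 on Apc+/- arrays 1, 2 and 3 and of 9.92, 9.91 and 9.65 on Apc+/-Atg7-/- arrays 1, 2 and 3. The lowest Apc+/-Atg7-/- array stood above the highest Apc+/- array, and the spread within each genotype (SD 0.14 and 0.15) was small beside the gap. The means were 8.67 ± 0.14 and 9.83 ± 0.15 (SD, n = 3), a 2.23-fold rise with a 95% interval of 1.88 to 2.65. In the limma fit the adjusted p was 0.00665, the fourth smallest p of all genes. By size its difference ranked 9 of 19938.

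Ifit2, a relative of Ifit1 that can promote apoptosis, read 6.98, 6.66 and 7.17 in Apc+/- and 7.76, 7.39 and 8.02 in Apc+/-Atg7-/- duodenum, in array order. The genotypes did not overlap, but Apc+/- array 3 and Apc+/-Atg7-/- array 2 were closer to each other than the SDs of 0.26 and 0.32. The ratio of 1.73 had an interval of 1.32 to 2.26, and the adjusted p by limma was 0.307 (unadjusted p = 0.0011).

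Ifit3, whose human counterpart binds and stabilises IFIT1, read 8.61, 8.52 and 7.98 in Apc+/- and 9.35, 9.02 and 8.77 in Apc+/-Atg7-/- duodenum. Apc+/- array 3 was the lowest and Apc+/-Atg7-/- array 1 the highest, and the groups did not overlap. The ratio was 1.60 (interval 1.20 to 2.13), with an adjusted p by limma of 0.629 (unadjusted p = 0.00454).

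Mx1 read 5.56, 5.60 and 5.67 in Apc+/- and 5.78, 5.64 and 5.78 in Apc+/-Atg7-/- duodenum. Apc+/-Atg7-/- array 2 lay inside the Apc+/- range. The ratio of 1.09 had an interval of 0.95 to 1.25, with an adjusted p by limma of 0.968. No detection call was used here, so whether this probe set reads above background is not known, and a probe set near background can show less than the transcript's change.

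Mx2 read 5.65, 5.74 and 5.77 in Apc+/- and 6.80, 6.51 and 6.66 in Apc+/-Atg7-/- duodenum. The Apc+/- arrays lay within a narrow band (SD 0.06), and all 3 Apc+/-Atg7-/- arrays stood well above it (SD 0.14). The means were 5.72 and 6.66, a 1.92-fold rise (interval 1.64 to 2.23) with an adjusted p by limma of 0.00944, the sixth smallest p of all genes. The limit given for Mx1 applies to this probe set too, since no detection call was used.

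**Figure D1:**
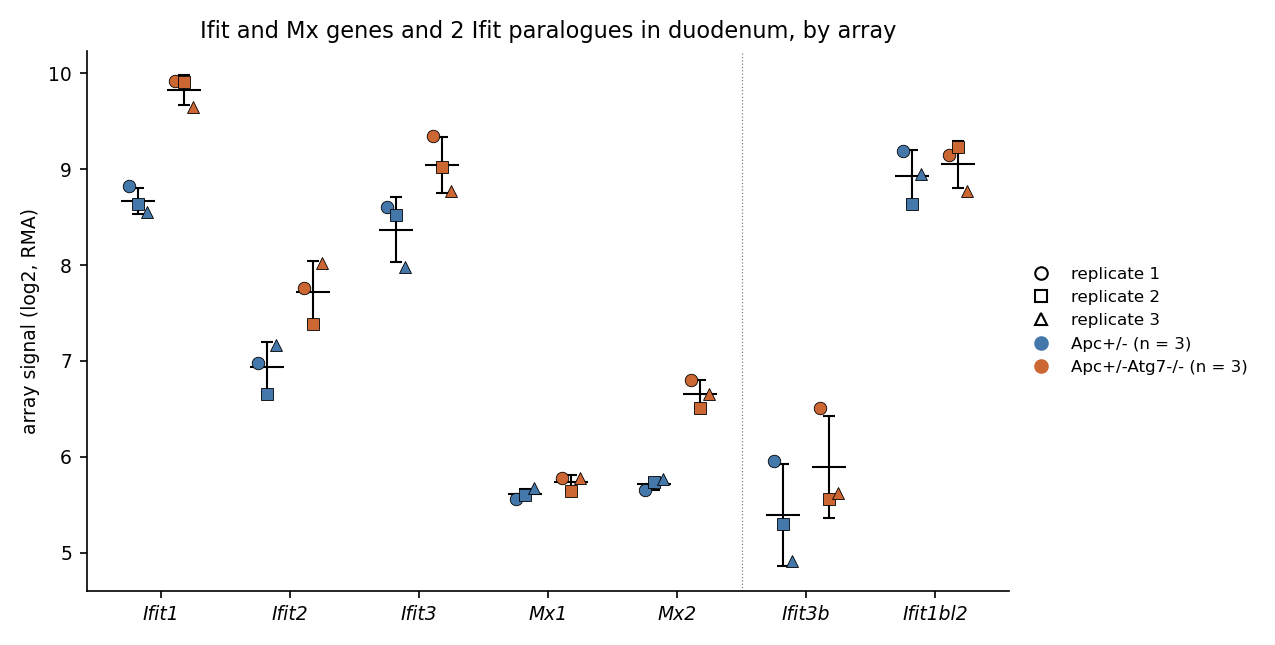
Array signal (log2, y axis) of the 5 Ifit and Mx genes and, right of the dotted line, of the paralogues Ifit3b and Ifit1bl2, with 1 point per array, the marker giving the replicate number, and bars for the mean and SD (n = 3 per genotype). Ifit1, Ifit2, Ifit3 and Mx2 have all 3 Apc+/-Atg7-/- points above the Apc+/- points, while Mx1, Ifit3b and Ifit1bl2 overlap. Signals of different genes come from different probes and are not comparable in height.

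**Figure D2:**
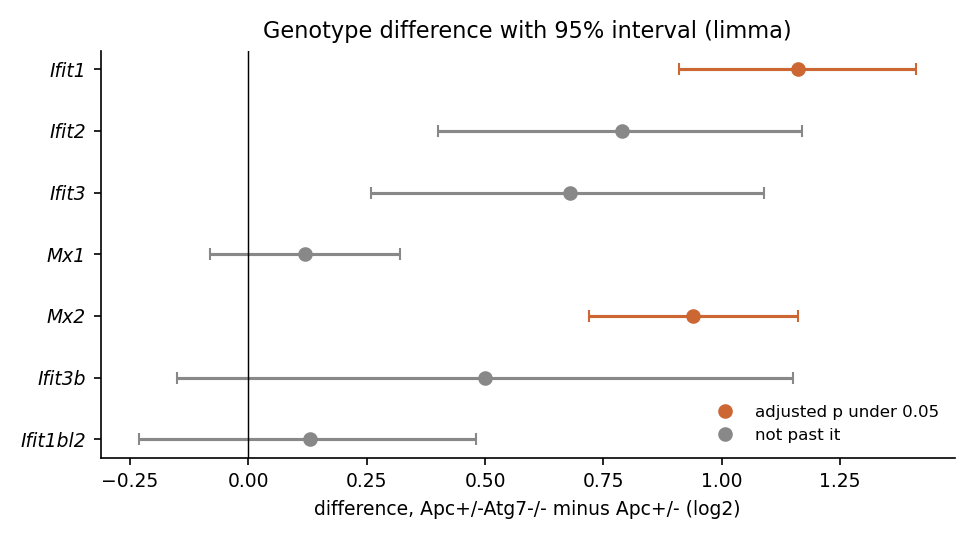
Difference between genotypes (log2, Apc+/-Atg7-/- minus Apc+/-, x axis) with limma's 95% interval for each gene, n = 3 arrays per genotype. The intervals of Ifit1 (0.91 to 1.41) and Mx2 (0.72 to 1.16) lie above that of Mx1 (-0.08 to 0.32).

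Of the 5 genes, 4 did not overlap between genotypes and were higher in Apc+/-Atg7-/- duodenum, where 4.81% of all genes did so, and 0 did not overlap in the lower direction, where 5.23% of all genes did so. All 5 were higher at some size, beside 43.2% of all genes. The median difference over the 5 was 0.79, beside -0.018 over all genes. At an unadjusted p under 0.01, 4 of the 5 were higher, beside 0.697% of all genes, and 0 were lower, beside 0.532%. An exact two-sided permutation test of 3 against 3 arrays gave p = 0.1 for these 4, the smallest it can give, and exact p = 0.2 for Mx1.

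Apc+/-Atg7-/- array 1 read as male, with Xist, the transcript of the inactive X, at 4.58 and the Y-linked Eif2s3y at 8.44. The other 5 arrays had Xist at 10.10 to 10.27 and Eif2s3y at 3.10 to 3.46. It was the highest array for Ifit1, Ifit3 and Mx2. It is the array without which the calls of Ifit1 and Mx2 ended. Apc+/-Atg7-/- arrays 2 and 3, which read as female, had Ifit1 at 9.91 and 9.65 and Mx2 at 6.51 and 6.66. That these lie above each of the 3 Apc+/- arrays follows from the lack of overlap given above and is no separate result. The part of sex in the values of array 1 was not tested. The signal of Atg7 went from 7.16 ± 0.11 to 6.63 ± 0.16 (SD, n = 3), lower on all 3 arrays, but did not pass over all genes (adjusted p = 0.242 by limma). Apc differed by 0.05 (SE 0.09). Array medians lay between 6.43 and 6.56 and arrays correlated at 0.989 to 0.994 across probe sets. Arrays carry no read depth, and 3 per genotype limit the precision.

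The size of the difference was compared between members, pair by pair. For each array the signal of 1 gene was subtracted from that of the other, and the 6 values were compared between genotypes by an exact two-sided permutation test, whose smallest p is 0.1. Of 10 pairs, 3 reached it, each with Mx1 as the gene whose signal differed less, with the limit on its probe set given above. Ifit1 minus Mx1 was larger by 1.04 in Apc+/-Atg7-/- duodenum, Ifit2 minus Mx1 by 0.67, and Mx1 minus Mx2 changed by -0.82. In these 3 pairs the genotypes did not overlap (exact p = 0.1, adjusted p = 0.333 over the 10 pairs). Mx1 minus Mx2 varied little within a genotype, from -0.13 to -0.09 in Apc+/- and from -1.02 to -0.87 in Apc+/-Atg7-/- duodenum. The differences of Ifit1 and Mx2 were set apart by 0.22 (exact p = 0.3, adjusted p = 0.5) and those of Ifit2 and Ifit3 by 0.11 (exact p = 0.5, adjusted p = 0.5). The smallest p of 0.1 lies above the threshold used for genes, so none of the 10 pairs could pass it. With 3 arrays a side, unequal change was thus not detectable by this test for any pair, including the 3 without overlap. For those 3 the lack of overlap is a description.

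The members did not follow 1 order of arrays within a genotype. Relative to each gene's own mean over the 6 arrays, Ifit2 was highest on Apc+/-Atg7-/- array 3 (0.69) and near its mean on array 2 (0.06). Ifit1 stood at 0.67 on array 1, 0.66 on array 2 and 0.41 on array 3. Ifit3 stood at 0.64 on array 1 and at 0.06 on array 3, and in the controls it was lowest on Apc+/- array 3 (-0.73), where Ifit2 was closest to its mean (-0.16). Averaged over the 5 genes the Apc+/- arrays stood at -0.31, -0.40 and -0.40 and the Apc+/-Atg7-/- arrays at 0.49, 0.26 and 0.35.

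The Ifit paralogues are described next, since they share sequence with members. Ifit3b, the near copy of Ifit3, read 5.96, 5.30 and 4.91 in Apc+/- and 6.51, 5.56 and 5.62 in Apc+/-Atg7-/- duodenum. Its replicate 1 was the highest in both genotypes, and the groups overlapped. Its difference of 0.50 (SE 0.29, adjusted p = 0.952 by limma) had an interval of -0.15 to 1.15, which includes the difference of Ifit3. It was 0.20 without Apc+/-Atg7-/- array 1, 0.26 without Apc+/- array 3 and 0.79 without Apc+/- array 1. The array's probes for such near-identical genes can pick up both transcripts, so the split between Ifit3 and Ifit3b is uncertain. No detection call was used for Ifit3b, so the limit given for Mx1 applies to it too.

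Ifit1bl2 shares its promoter stretch with Ifit1 and read 9.19, 8.64 and 8.95 in Apc+/- and 9.15, 9.23 and 8.77 in Apc+/-Atg7-/- duodenum. The genotypes overlapped, with the lowest array in Apc+/- and the highest in Apc+/-Atg7-/- duodenum, and the difference was 0.13 (SE 0.16, interval -0.23 to 0.48, adjusted p = 0.991 by limma). Ifit1 minus Ifit1bl2 ran from -0.40 to 0.00 on the Apc+/- arrays and from 0.68 to 0.88 on the Apc+/-Atg7-/- arrays, a change of 1.03 (exact two-sided permutation p = 0.1, the smallest possible, adjusted p = 0.2). Ifit3 minus Ifit3b changed by 0.17 (exact p = 0.5, adjusted p = 0.5). These 2 pairs were chosen after their values were seen, and p was adjusted over both. Ifit1bl1 was not analysed here.

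The genes that flank the members were not called, where 0.110% of all genes were. Around the Ifit cluster, the death receptor Fas, the cholesterol hydroxylase Ch25h and the lysosomal lipase Lipa differed by 0.16, -0.05 and -0.14. On the other side the transporter Slc16a12, the pantothenate kinase Pank1 and the microRNA Mir107, which lies within Pank1, differed by 0.03, 0.10 and -0.18. Around the Mx genes, Pcp4, Dscam and the protease Bace2 differed by 0.12, 0.02 and 0.11, and Tmprss2, Ripk4 and Prdm15 by 0.11, 0.11 and -0.09. Fam3b, between Mx1 and Mx2, differed by -0.17 (SE 0.11). These 13 genes all overlapped between the genotypes, as most genes did. Of all genes, 4.81% were higher and 5.23% lower without overlap.

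**Figure D3:**
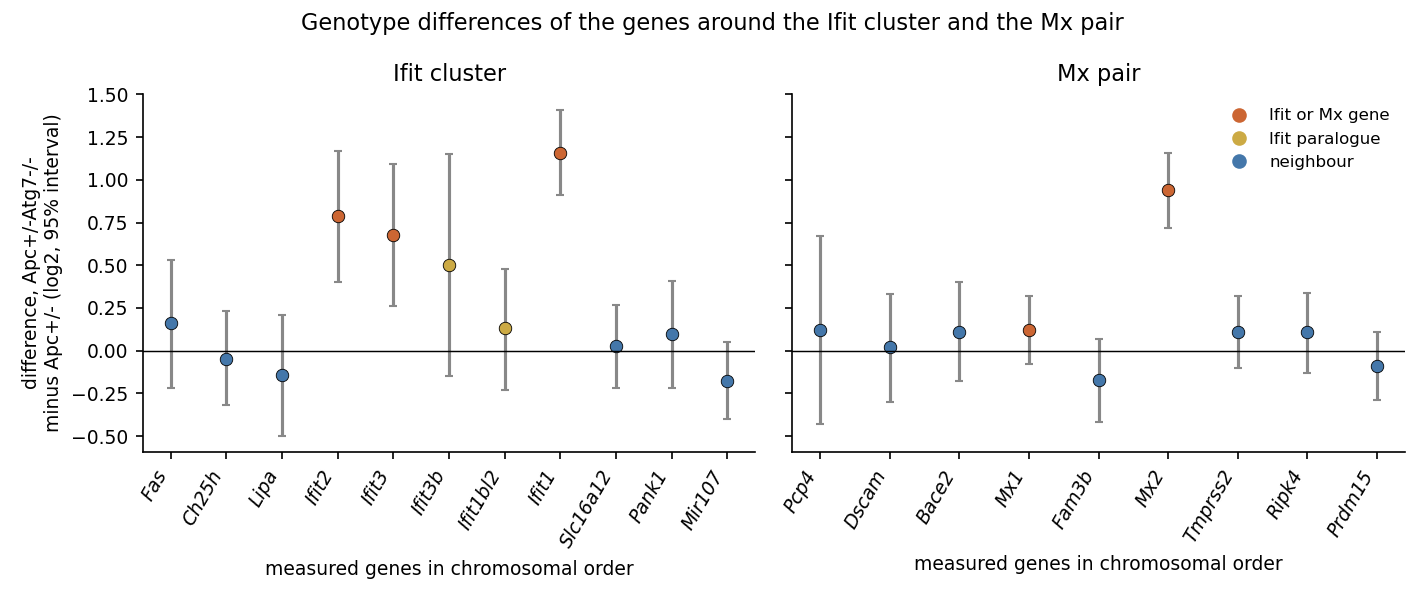
Difference between genotypes (log2, Apc+/-Atg7-/- minus Apc+/-, y axis, with limma's 95% interval) for measured genes in chromosomal order around the Ifit cluster (left) and the Mx pair (right). Ifit2, Ifit3, Ifit1 and Mx2 stand above 0 with their intervals, and the intervals of Mx1, both paralogues and all flanking genes include 0.

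Upstream of the members in the pathway, the interferons and their receptors were not called, where 0.110% of all genes were. A count of 0 in a list this short is near that share. Of 16 measured interferon genes (of 21 on the list) 0 passed, with a median difference of -0.04. Of these genes 6 were higher (43.2% of all genes were) and 10 lower. Their means over the 6 arrays ran from 3.85 to 8.10. No detection call was used, so whether these probe sets read above background is not known. A difference near 0 there can be less than the transcript's change. Ifnb1 (-0.04), Ifnl2 (-0.11) and Ifng (0.04) lay close to 0, and Ifna16 had the smallest p (-0.44, SE 0.14, adjusted p = 0.797 by limma), before Ifna12 (-0.20), Ifne (0.16) and Ifna14 (-0.12). Of 6 receptor chains 0 passed, and their differences ran from -0.26 (Ifngr2) to 0.09 (Ifnar1). Ifnar2, the signalling chain of the type I receptor, differed by -0.18 (SE 0.09) and Ifnlr1, the type III receptor chain, by -0.03 (SE 0.11).

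Among 12 measured signalling genes 0 passed (0.110% of all genes did) and 8 were higher (43.2% of all genes were). The median difference was 0.10, and it was 0.05 without Apc+/-Atg7-/- array 1. Without overlap, 3 were higher (4.81% of all genes) and 2 lower (5.23% of all genes). Stat2, which carries an activation domain of that complex, read 8.11, 8.06 and 8.01 in Apc+/- and 8.46, 8.47 and 8.51 in Apc+/-Atg7-/- duodenum. It did not overlap, at a difference of 0.42 (SE 0.08, adjusted p = 0.226 by limma). Irf7, the interferon-inducible factor that amplifies interferon production, differed by 0.53 (SE 0.16), also without overlap. Jak2 differed by -0.23 (SE 0.10), Ikbke by 0.19 (SE 0.12), Jak1 by -0.10 (SE 0.08) and Irf9 by 0.10 (SE 0.11). The kinases Jak1 and Jak2 were the 2 that were lower without overlap.

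Of 12 nucleic acid sensors 0 passed (0.110% of all genes did), and 5 were higher without overlap, beside 4.81% of all genes. The median difference was 0.25. Dhx58, an RNA helicase of the RIG-I family, came nearest, at 0.83 (SE 0.13, adjusted p = 0.0615 by limma). The RNA-activated kinase Eif2ak2 differed by 0.48 (SE 0.09), the helicase Ifih1 by 0.38 (SE 0.08) and the Z-nucleic acid sensor Zbp1 by 0.49 (SE 0.11). Mavs (-0.11), Sting1 (-0.04) and Cgas (0.09), an adaptor for RNA sensing and the DNA sensing adaptor and sensor, lay near 0. Of 8 negative regulators 0 passed (0.110% of all genes did), with a median of 0.10. Without overlap, 3 of them were higher (4.81% of all genes) and 0 lower (5.23% of all genes). Usp18, the Isg15 protease that blocks the type I receptor, read 8.25, 8.55 and 8.02 in Apc+/- and 9.03 on each Apc+/-Atg7-/- array. Its difference of 0.76 (SE 0.13) had an adjusted p of 0.112 by limma. Samhd1, Adar and Ptpn2 differed by 0.44, 0.24 and 0.16, and Socs1 and Socs3 by -0.07 and -0.09.

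Of 25 measured other interferon-stimulated effectors, 6 rose (0.0702% of all genes did), 0 fell (0.0401% of all genes did), and 18 were higher without overlap (4.81% of all genes were). The median difference was 0.50. Ddx60 (1.17, SE 0.16), Oasl1 (1.12, SE 0.11), Herc6 (1.02, SE 0.11), Rtp4 (0.88, SE 0.10), Oas1a (0.84, SE 0.10) and Xaf1 (0.69, SE 0.10) rose, with adjusted p between 0.00665 and 0.0366 by limma. With array 1 of the Apc+/-Atg7-/- group left out, 0 genes of the pathway lists rose. Leaving out array 3 of that group gave 2, and leaving out Apc+/- array 1 or 3 gave 2 and 3. Oasl2 (0.83), Oas2 (0.74), Cmpk2 (0.71) and Trim30a (0.86) did not pass. Rsad2, the antiviral enzyme viperin, had the largest difference of the list (1.22, SE 0.23, adjusted p = 0.167 by limma) and is named after its values were seen. Against this range, the differences of Ifit1 and Mx2 stood with the 6 that rose, those of Ifit2 and Ifit3 lay above the list's median, and Mx1 lay with the low members, next to Ifi35 (0.12) and Ifi27l2a (0.11). The dynamin superfamily, to which Mx proteins belong, gave 0 calls among 7 measured genes, where 0.110% of all genes were called. Its differences ran from -0.10 (Dnm3) to 0.17 (Dnm1), including Dnm1l (0.04) and Mfn1 (0.05).

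**Figure D4:**
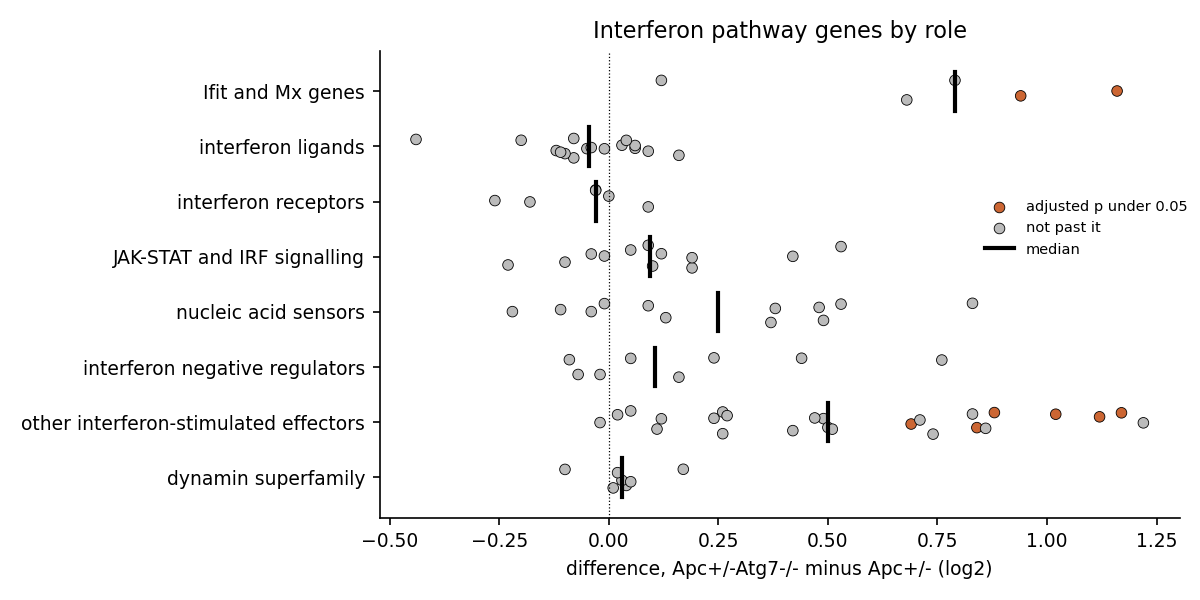
Difference between genotypes (log2, Apc+/-Atg7-/- minus Apc+/-, x axis) of each measured gene, grouped by role, 1 point per gene, with orange for an adjusted p under 0.05 and a bar at the median. The medians are 0.79 for the Ifit and Mx genes and 0.50 for other stimulated effectors, and from -0.04 to 0.25 for the other groups plotted. The Ifit paralogues are not plotted here.

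The 10 other genes whose array values were most like the average of the members were found by the root mean square, over the 6 arrays, of the gap between deviations from each gene's mean. It was 0.068 (log2) for Xaf1, 0.099 for Samd9l and for Cmpk2, 0.107 for Oas1a, 0.108 for Gm12185, 0.109 for Sass6, 0.114 for Mlkl, 0.115 for Oas2, 0.123 for Rtp4 and 0.126 for Dhx58. The median over all other genes was 0.403. Of the members themselves, Mx2 was closest to their average (0.122) and Mx1 farthest (0.317). Xaf1 read 7.73, 7.73 and 7.66 in Apc+/- and 8.55, 8.37 and 8.27 in Apc+/-Atg7-/- duodenum. Samd9l, a restriction factor, read 9.40, 9.60 and 9.48 and then 10.23, 10.04 and 10.14. The likeness rule fixes that these 10 genes differ between the genotypes as the members do, so their differences are a description. Of the 10, 6 stood on the pathway lists, and Samd9l, Gm12185, Sass6 and Mlkl did not. Sass6 is a centriole assembly protein and Mlkl executes necroptosis.

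**Figure D5:**
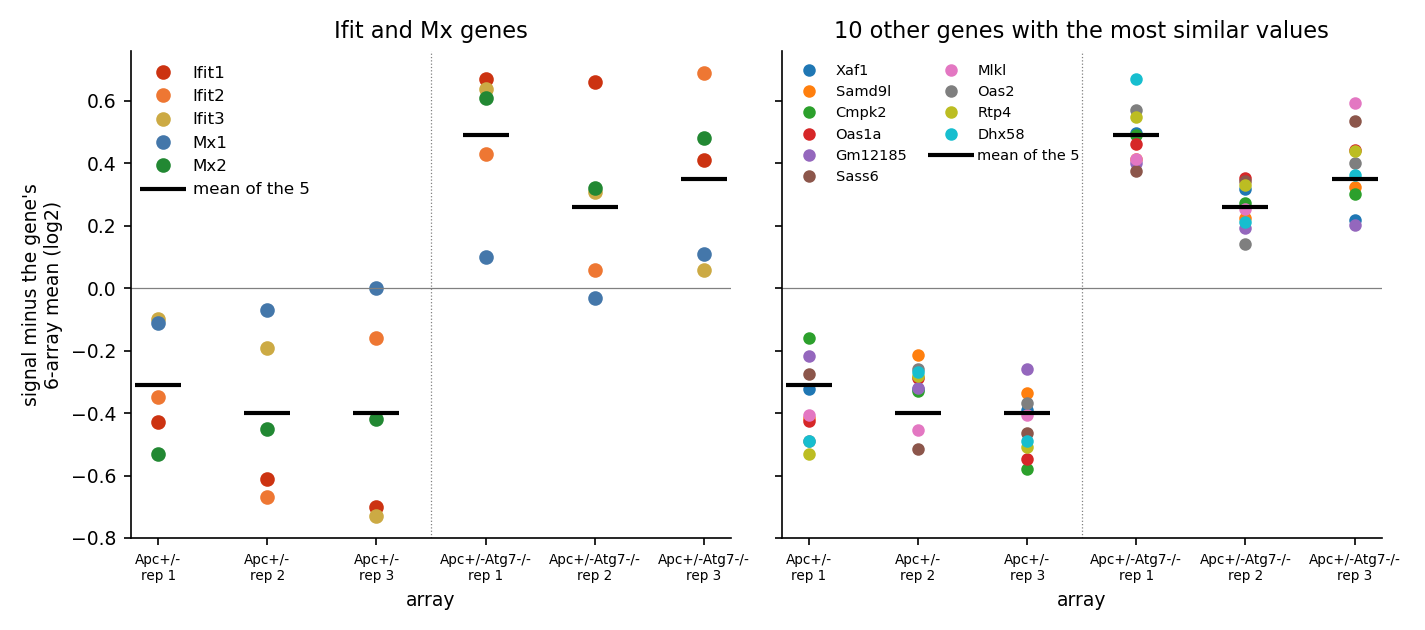
Signal minus the gene's own mean over the 6 arrays (log2, y axis) by array (x axis), for the 5 Ifit and Mx genes (left) and the 10 other genes with the most similar values (right), 1 point per gene and array, with a black bar for the mean of the 5. The bar runs from -0.40 to -0.31 on the Apc+/- arrays and from 0.26 to 0.49 on the Apc+/-Atg7-/- arrays, and Mx1 stays between -0.11 and 0.11.

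Markers of the duodenal epithelium were present, and 0 of 12 passed, with 6 higher and 6 lower and a mean over the 12 of 9.35 to 9.53 on Apc+/- and 9.42 to 9.48 on Apc+/-Atg7-/- arrays. For comparison with this and the next lists, 0.110% of all 19938 genes passed and 11327 of them were lower. Pdx1 and Gata4, which mark proximal intestine, averaged 7.65 and 8.45 in Apc+/- and 8.10 and 8.55 in Apc+/-Atg7-/- duodenum. Single markers went both ways, with the lactase gene Lct at a difference of -0.82 (SE 0.34, overlapping) and the hormone gene Cck at 0.27 (SE 0.09, higher without overlap). Of 11 leukocyte markers 0 passed and 10 were lower, with means of 6.97 to 7.14 and 6.91 to 7.01. Of 6 plasmacytoid dendritic cell markers 0 passed, with means of 7.11 to 7.22 and 7.14 to 7.21. Siglech, which defines these cells, differed by -0.16 (SE 0.08), and the 2 markers that were higher, Bst2 and Irf8, are also on the pathway lists. Of 7 intraepithelial lymphocyte markers 0 passed, with means of 7.67 to 8.21 and 7.71 to 7.85. Smooth muscle markers were lower in 7 of 8, with means of 8.32 to 8.89 and 7.87 to 8.65. Pancreatic acinar markers were lower in 5 of 7, with means of 6.40 to 6.52 and 6.19 to 6.27 that did not overlap. Clps, the pancreatic colipase, fell by 1.03 (SE 0.13, adjusted p = 0.0219 by limma) and was the only one of the 7 without overlap. The other acinar markers differed by -0.25 (Cpb1) to 0.07 (Cela1). The part of these shifts in the values of the Ifit and Mx genes was not tested.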

How the data were processed

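Whole-transcript Affymetrix arrays were run on RNA of 3 Apc+/- and 3 Apc+/-Atg7-/- duodena, per the labels. The authors deposited RMA values (RMA and Partek, without versions, per the submitters' processing notes), taken here as log2 from their range of 2.4 to 13.3, since no source used here states the base. RMA equalises arrays, which removes shifts shared by all transcripts. Of 28853 probe sets, 21789 had 1 gene symbol, 1621 several and 5443 none. The brightest probe set stood for a gene, which left 19938 genes, unfiltered.

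Genotypes were fitted in limma 3.58.1 (R 4.3.3, lmFit, eBayes, two-sided, Benjamini-Hochberg over all genes). Intervals used 9.7 degrees of freedom. The script was tested on simulated data. Members, lists (88 of 100 pathway entries measured) and tests were chosen with earlier results of these data known, and motifs after the values were seen. Named were the members and paralogues, each list's called genes and the 4 others of smallest p, the 10 most similar genes and the 3 nearest genes on each side. Outside this rule, and after their values were seen, Ifnb1, Ifnl2, Ifng, Jak1, Irf9, Mavs, Sting1, Cgas, Socs1, Socs3, Ifi35, Ifi27l2a and Rsad2, the single markers and the genes that hold a motif were named. Promoters are from RefSeq (GRCm38.p6), which matched 5 of 7 Ifit and Mx genes. Figures used matplotlib 3.10.9.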

Additional observations from a re-analysis of the deposited data

How the results depend on the processing

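The 5 differences kept their direction under every alternative that could be fitted. Several alternatives cannot move the estimate, since they change only its error, the threshold or the genes tested. Ifit1 stood between 1.10 and 1.25 with 1 array left out, Ifit2 between 0.64 and 0.96, Ifit3 between 0.48 and 0.81, Mx1 between 0.09 and 0.17 and Mx2 between 0.87 and 1.01. With Apc+/-Atg7-/- replicate 1 left out, neither Ifit1 nor Mx2 passed. Across the fits that each left out 1 array, counts of members called ran from 0 to 2. Those of all genes ran from 2 to 27 and those of pathway genes that rose from 0 to 7. Without variance moderation, Ifit1 (1.16) and Mx2 (0.94) were no longer past the threshold (adjusted p = 0.56 for each), 0 members and 0 genes were called. With genes below the median level left out, 1 member was called, since the Mx genes were then not tested. Fitted over all 28853 probe sets, 39 probe sets were called, a count of probe sets and not of genes. With the threshold at an adjusted p of 0.01, 8 genes were called. Over 16 alternatives the adjusted p ran from 0.000564 to 0.56 for Ifit1, and over 15 from 0.00294 to 0.56 for Mx2. Ifit1bl2, whose alternatives were added after seeing the data, ran from -0.02 (without Apc+/- replicate 2) to 0.26 with 1 array left out. Ifit3b ran from 0.20 to 0.79. With 1 array left out, list medians ran from -0.14 to 0.01 for ligands, from -0.11 to 0.01 for receptors, from 0.05 to 0.13 for signalling genes, from 0.21 to 0.29 for sensors, from 0.06 to 0.14 for negative regulators, from 0.50 to 0.53 for other effectors and from 0.14 to 0.52 for the paralogues. Deviations of same-numbered arrays correlated at 0.146, -0.074 and 0.24, and those of differently numbered arrays at -0.308 to 0.179. Whether replicate numbers pair the arrays is not settled by these values. With the replicate number as a block, 4 members passed (Ifit2 at 0.79, adjusted p = 0.0119, and Ifit3 at 0.68, adjusted p = 0.0425), with Ifit1 at 1.16, Mx2 at 0.94 and Mx1 at 0.12, and 44 genes in all.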

Other observations

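The form of the interferon-stimulated response element that the Ifit1 and Ifit3 windows share, with CT between its repeats, was looked up in the promoter windows of all measured genes. Of 15614 genes with a window, 41 held it, and 27 of these were higher in Apc+/-Atg7-/- duodenum (65.9%), beside 43.6% of all genes with a window. Without the Ifit genes, 23 of 37 were higher (62.2%), and 9 were higher without overlap (24.3%), beside 4.82% of all genes with a window. Oas1a (0.84, SE 0.10) was the only one of the 37 that passed an adjusted p of 0.05 by limma. The GTPase Gm12250 (0.72, SE 0.13), the guanylate-binding protein Gbp7 (0.51, SE 0.13), the tetherin gene Bst2 (0.50, SE 0.13) and Stat2 (0.42, SE 0.08) were higher without overlap and did not pass. B2m, the light chain of class I molecules, holds it and differed by 0.06 (SE 0.09), as Ifit1bl2 does at 0.13. At the other end, Tgfbi differed by -0.41 (SE 0.13), lower without overlap. Of the 12 genes that rose and had a window, 2 held this form, Ifit1 and Oas1a, beside 0.263% of all genes with a window. The others, among them Oasl1, Herc6, Ddx60 and Xaf1, did not hold it. The wider form with any 2 bases between the repeats, which is marked in capitals in the printed windows, was held by 607 genes. Of these 291 were higher (47.9%), with a median difference of -0.006, close to all genes. Of the 12 genes that rose and had a window, 4 held the wider form (Ddx60, Ifit1, Irgm1 and Oas1a), beside 3.89% of all genes with a window. Both forms were chosen after the values were seen, and no test was run.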
